A study of Mus musculus with 14 samples.

Results

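The growth hormone and Stat5 signalling genes described here are 10 genes of the 29923 gene symbols in the deposited expression table: the receptors Ghr and Prlr, the kinase Jak2, the transcription factors Stat5a and Stat5b, the repressors Bcl6 and Cux2, the feedback inhibitors Cish and Socs2, and the secreted target Igfals. They were chosen by name and by what they do in liver, with earlier results of these data known. All 10 were in the table and all 10 passed the filter for testing, a level of 1 TPM (a share of transcripts corrected for their length) or more in at least 3 of 14 tumours, which left 13466 genes. Cux2 passed only because 3 vector tumours reached that level, so its comparison was not independent of the filter.

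Bulk polyA RNA had been sequenced from 14 liver tumours of C57BL/6 mice, made by tail-vein injection of transposon plasmids with the SB100 transposase. Aoah was delivered in 4 Luc tumours and 3 LucOS tumours, and the empty vector in 4 further Luc and 3 further LucOS tumours. Luc tumours carried pT3-EF1a-MYC-IRES-luciferase, and LucOS tumours carried the same MYC cassette with the OVA, SIN and SIY antigens added. Aoah, acyloxyacyl hydrolase, inactivates bacterial lipopolysaccharide by cutting fatty acids from it; it came on PKT2/CLP-Aoah and its control was the empty PKT2/CLP-Vec. All groups therefore shared the MYC driver under the EF1a promoter, the transposase and the strain. A plasmid for activated beta-catenin, pT3-N90-CTNNB1, is listed too, and the tumours that carried it are not named. The labels describe anti-PD1 dosing and do not say that any of these tumours was dosed. The sex and age of the mice are not given in the sources used here. A bulk tumour mixes malignant hepatocytes with every other cell present, so fewer cells of a type and less RNA per cell cannot be told apart. The labels number the tumours and do not state that each came from its own animal, so p-values measure only the spread between these samples.

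Growth hormone from the pituitary binds Ghr on hepatocytes, and the receptor-bound kinase Jak2 then phosphorylates Stat5a and Stat5b, which enter the nucleus and switch on genes such as Igf1, Igfals, Cish and Socs2. Cish and Socs2 bind back to the receptor and dampen the signal. In mice the hormone comes in pulses in males and more evenly in females, and this pattern, read by Stat5b with the repressors Bcl6 and Cux2, sets much of the sex-biased gene activity of the liver. RNA levels show neither the hormone nor the phosphorylation that carries its signal.

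Stat5 dimers bind the palindrome TTCNNNGAA, which reads the same on both strands, and the promoters of the 10 genes were searched for it because shared control of its targets is what the pathway is known for. RefSeq promoters on GRCm38.p6, 250 bases before to 50 bases after each annotated start, were held for 9 of the 10 genes, with 18 starts among them; Socs2 had none. The motif lay in at least 1 promoter of 4 genes, Prlr, Bcl6, Cish and Igfals, and its letters were not in the promoter windows of Ghr, Jak2, Stat5a, Stat5b or Cux2. In the whole table, 8.3% of 32851 promoters and 9.55% of 27025 symbols held it. The Cish promoter held 2 copies, as did 0.457% of all promoters with at least 2, and the second Bcl6 start held 3, as did 0.0335%. The stretches around the matches are given 5′ to 3′ on the gene's own strand, with the motif in capitals, because they show how close the copies lie:
Cish (chr9:107296649-107296678, + strand): ccgcccagttTTCCTGGAAagTTCTTGGAA
Bcl6, second start (chr16:23981353-23981461, - strand): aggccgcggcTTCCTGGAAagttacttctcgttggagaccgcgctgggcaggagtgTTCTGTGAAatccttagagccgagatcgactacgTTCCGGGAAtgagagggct
Bcl6, first start (chr16:23988952-23988980, - strand): agcaaattagTTCTCAGAAttccagaggc
Prlr, second start (chr15:10223786-10223814, + strand): gcaaaatgagTTCTAGGAAtaagggatat
Igfals, first start (chr17:24877598-24877626, + strand): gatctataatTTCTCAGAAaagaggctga
Igfals, second start (chr17:24878163-24878191, + strand): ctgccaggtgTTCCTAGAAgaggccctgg

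The Cish copies were centred 5 and 16 bases after the annotated start, inside the transcribed stretch. The 3 Bcl6 copies of the second start were centred at -164, -118 and -84, and every other match lay between -232 and -54. A match is a description of letters and not evidence of binding.

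**Figure D1:**
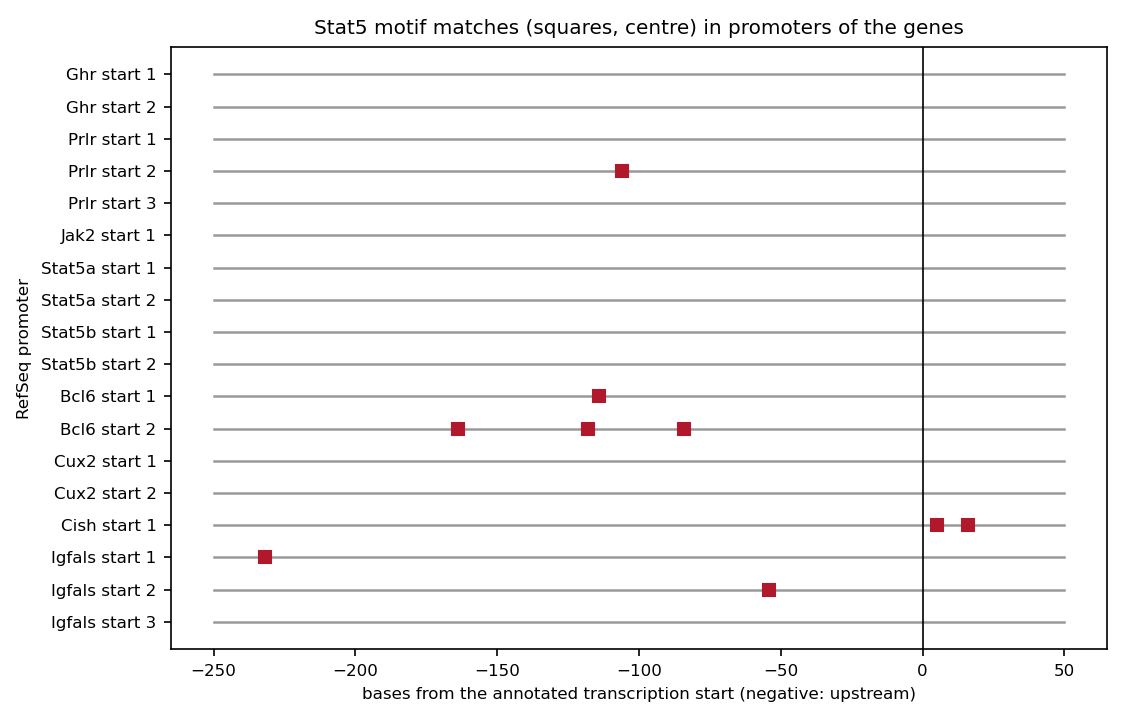
Position of each Stat5 motif match (squares, at the motif's centre) in the 18 RefSeq promoters of 9 of the genes, in bases from the annotated start (x axis). The Cish copies sit just after the start, and the second Bcl6 start holds 3 copies.

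Before the members, the labels were checked with Aoah itself. Aoah stood at 284 to 685 TPM in Luc tumours with Aoah, against 0.74 to 54.76 TPM in Luc tumours with vector, and at 576 to 931 TPM in LucOS tumours with Aoah, against 1.28 to 3.43 TPM in LucOS tumours with vector. Luc vector 1 and Luc vector 3 stood apart from the other vector tumours, with 18.6 and 54.8 TPM of Aoah. Luc Aoah 3 stood apart with 9.28% of its TPM in small noncoding genes, against 1.06 to 2.37% elsewhere, and LucOS Aoah 3 with 16.6% in mitochondrial genes, against 3.41 to 8.45% elsewhere. Changes and counts were also computed without Luc vector 1 and 3, and without Luc Aoah 3 and LucOS Aoah 3, and several are given beside the results. Xist was detected in all 14 tumours, at 6.01 to 69.7 TPM; Y-linked genes were not analysed here. Depth is unknown, because TPM keeps none.

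Across the 14 tumours Ghr had the highest median level of the 10 genes, 26.1 TPM, followed by Prlr at 12.6 TPM and Stat5b at 8.12 TPM. Jak2, Cish, Socs2, Stat5a, Igfals and Bcl6 lay close together, with medians of 3.33, 3.22, 2.95, 2.70, 2.69 and 2.31 TPM, and their ranges over tumours overlapped. Cux2 was lowest, with a median of 0.32 TPM, and reached 1 TPM in 3 tumours. On the log2(TPM + 1) scale Prlr, Ghr and Igfals ranged most over the tumours, by 3.20, 3.10 and 2.55, and Jak2 least, by 1.25. In TPM the highest tumour stood 12.6-fold above the lowest for Prlr, 11.7-fold for Igfals, 9.27-fold for Ghr and 3.16-fold for Jak2; for Cux2, with 0.03 TPM in its lowest tumour, it was 56.7-fold.

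**Figure D2:**
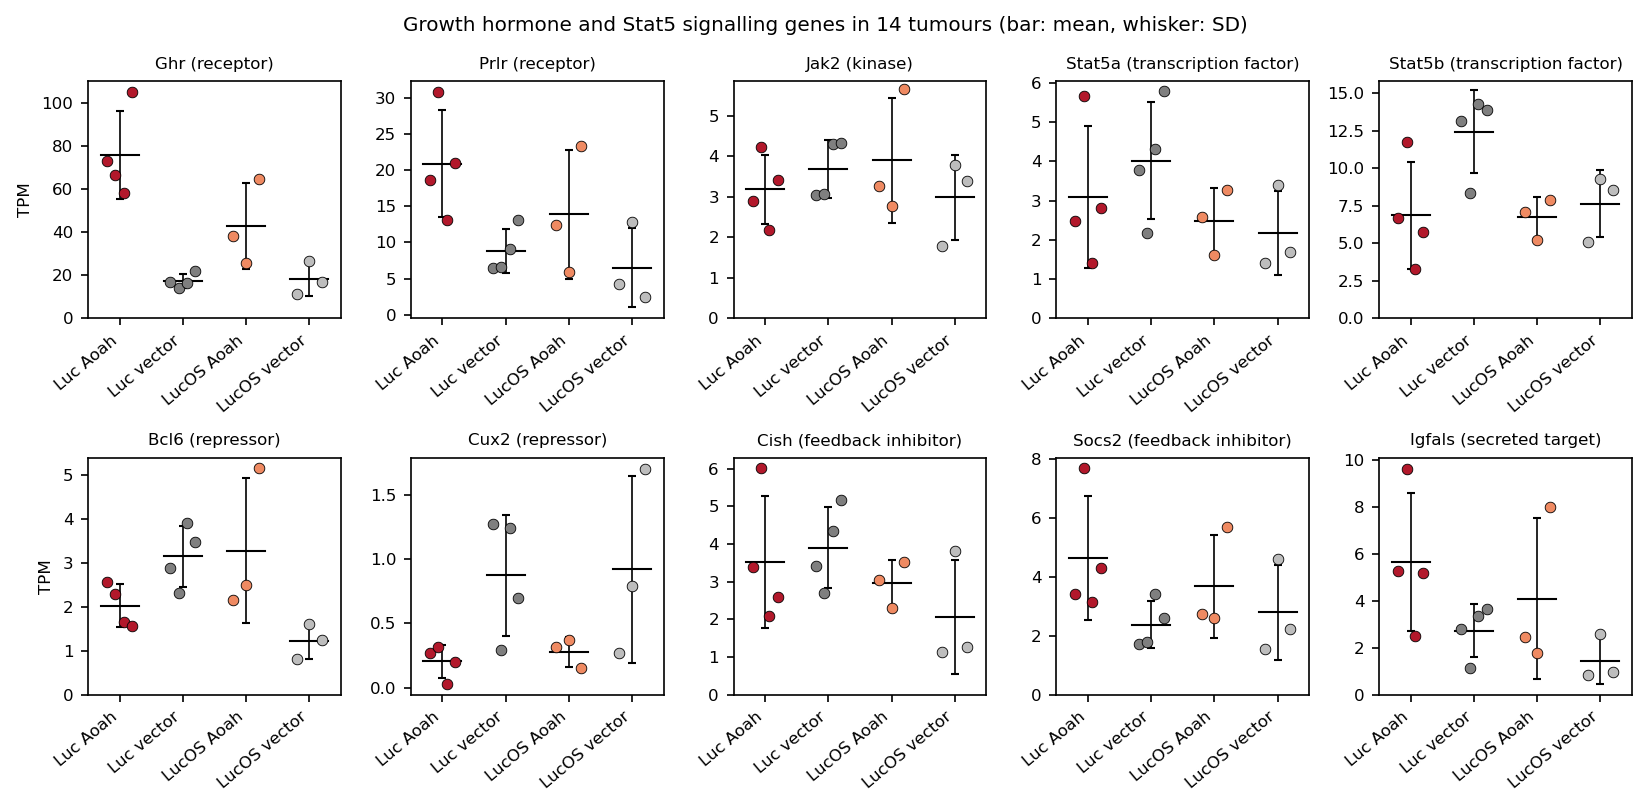
TPM of the 10 genes in every tumour (points), with the group mean (bar) and SD (whisker); each panel has its own y axis. Ghr in the 4 Luc tumours with Aoah, 58.25 to 105.07 TPM, sits above every Luc vector tumour, 13.88 to 22.11 TPM.

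Ghr, the growth hormone receptor, was the member that rose with Aoah in Luc tumours. It had 73.1, 66.4, 58.25 and 105.1 TPM in Luc tumours with Aoah, against 16.8, 13.9, 16.2 and 22.1 TPM in Luc tumours with vector. The groups did not overlap, and the lowest Aoah tumour stood above the highest vector tumour by a wide margin. No overlap in the higher direction was also found for 11.8% of all genes. The means were 75.7 ± 20.5 TPM with Aoah and 17.3 ± 3.48 TPM with vector (SD, n = 4 each). On the log2(TPM + 1) scale this was a change of 2.05 (SE 0.30), or 4.15-fold, with an adjusted p of 0.000658 in limma. Changes on this scale understate those of genes at low TPM.

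Of the 10 genes, Ghr alone passed an adjusted p of 0.05 in that comparison. The background there was high: 22.2% of the 13466 genes tested were called, 7.93% higher and 14.3% lower, so 1 of 10 is no more than the background share. At an unadjusted p under 0.05 there were 5 of the 10, Ghr, Prlr, Stat5b, Cux2 and Socs2, against 41.8% of all genes. The median change over all genes was -0.24, and that over the 10 members was -0.17; Ghr lay 2.30 above the median of all genes. Ghr kept its call without Luc vector 1 and 3, where its change was 2.01, and without Luc Aoah 3 and LucOS Aoah 3, where it was 2.17.

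In LucOS tumours Ghr pointed the same way and did not pass. It had 38.3, 25.4 and 64.4 TPM in LucOS tumours with Aoah, against 11.3, 26.7 and 16.6 TPM in LucOS tumours with vector. LucOS vector 2 stood above LucOS Aoah 2, so the groups overlapped. The change was 1.16 (SE 0.35; adjusted p = 0.139 in limma), and 0.82 without Luc Aoah 3 and LucOS Aoah 3. Without LucOS vector 2 it was 1.48 and passed, with an adjusted p of 0.0401. In LucOS tumours 0.965% of genes were called, and 0 of the 10 members; at an unadjusted p under 0.05 there were 2 members, Ghr and Bcl6, against 12.3% of all genes. The difference between the Aoah effects, LucOS minus Luc, was -0.89 for Ghr, with a 95% interval of -1.87 to 0.09 and an adjusted p of 0.443. The authors' deposited table, in which the direction was read from the sign of Aoah, gave Ghr a log2 fold change of 2.45 in Luc tumours (adjusted p = 5.561e-21) and 1.21 in LucOS tumours (adjusted p = 0.0285).

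Markers of hepatocytes, the cells in which Ghr is best known, moved with it in part. The 7 hepatocyte markers measured (Alb, Ttr, Apoa1, Apob, Serpina1a, Cps1 and Hnf4a) summed to 5551 to 20243 TPM in Luc tumours with Aoah, against 4855 to 7112 TPM in Luc tumours with vector. Of the 7, 2 rose (Ttr and Alb) and 0 fell in Luc tumours, and 1 rose (Ttr) in LucOS tumours, where the sums were 6707 to 16103 TPM in Aoah tumours, against 2882 to 6738 TPM in vector tumours. Over all genes 7.93% rose and 14.3% fell in Luc tumours, and 0.965% were called in LucOS tumours. None of the 7 was at 0. Their changes in Luc tumours ran both ways, with 1.41 for Alb and 1.40 for Ttr, against -1.19 for Hnf4a and -0.77 for Cps1, which did not pass. After the shift of each tumour to a common median 3 rose and 1 fell in Luc tumours, where 30.6% of all genes were called. After quantile normalization 2 rose and 3 fell, where 33.1% were called. Without Luc vector 1 and 3 there were 0 calls, against 361 of all 13466 genes. The median change of the 7 was then 0.47, against 0.31 with all tumours. The LucOS call was lost without Luc vector 1 and 3, where 22 genes were called instead of 130. The LucOS median of the 7 stayed at 0.82. That call was also lost without Luc Aoah 3 and LucOS Aoah 3, where 15 genes were called and the median was 0.44. Ghr minus the mean log2 level of the 7 markers was 1.82 higher with Aoah in Luc tumours and 0.43 higher in LucOS tumours. The marker mean itself was higher by 0.23 and by 0.74. The share of hepatocytes was not measured, so their part in the Ghr values was not tested.

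Prlr, the prolactin receptor, uses the same kinase and the same Stat5 proteins. It had 18.7, 30.8, 13.1 and 21.0 TPM in Luc tumours with Aoah, against 6.53, 6.56, 9.14 and 13.06 TPM in Luc tumours with vector. The groups did not overlap, but Luc Aoah 3 and Luc vector 4 almost met; 11.8% of all genes were also higher with no overlap. The change was 1.15 (SE 0.44; adjusted p = 0.0686 in limma). In LucOS tumours Prlr had 12.4, 5.85 and 23.4 TPM with Aoah, against 4.29, 12.8 and 2.45 TPM with vector, which overlapped. The change was 1.05 (SE 0.51; adjusted p = 0.424 in limma), and 0.60 without Luc Aoah 3 and LucOS Aoah 3. An overlapping gene on the same strand, Gm21973, may share its reads.

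Jak2, the kinase of both receptors, gave no call. It had 2.90, 4.22, 2.18 and 3.41 TPM in Luc tumours with Aoah, against 3.05, 3.06, 4.29 and 4.32 TPM in Luc tumours with vector, a change of -0.17 with a 95% interval of -0.71 to 0.36. It had 3.27, 2.77 and 5.65 TPM in LucOS tumours with Aoah, against 1.79, 3.77 and 3.39 TPM in LucOS tumours with vector, a change of 0.29 with an interval of -0.32 to 0.91, or 0.048 without Luc Aoah 3 and LucOS Aoah 3. Both pairs of groups overlapped, and the adjusted p-values in limma were 0.606 and 0.784.

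Stat5b, the main growth hormone effector of liver, leaned downward in Luc tumours and did not pass. It had 6.68, 11.8, 3.25 and 5.72 TPM in Luc tumours with Aoah, against 13.2, 8.37, 14.3 and 13.9 TPM in Luc tumours with vector. Luc Aoah 2 lay above Luc vector 2, and these were the pair that overlapped. The change was -0.86 (SE 0.31; adjusted p = 0.0555 in limma). Left-out tumours moved this across the threshold: the adjusted p ranged from 0.00865 to 0.175, and Stat5b was called lower without Luc Aoah 2, without Luc vector 2 or without LucOS vector 1. LucOS tumours gave 7.09, 5.21 and 7.87 TPM with Aoah, against 5.07, 9.27 and 8.58 TPM with vector, a change of -0.14 with an interval of -0.90 to 0.61.

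Stat5a, its close relative, is better known for prolactin signalling in the mammary gland. It had 2.49, 5.66, 1.41 and 2.82 TPM in Luc tumours with Aoah, against 3.78, 2.17, 4.32 and 5.80 TPM in Luc tumours with vector, a change of -0.34 (adjusted p = 0.433 in limma). LucOS tumours had 2.57, 1.61 and 3.27 TPM with Aoah, against 1.42, 3.40 and 1.69 TPM with vector, a change of 0.16 (adjusted p = 0.937 in limma). Both pairs of groups overlapped. Stat5b exceeded Stat5a in every tumour, by 2.03-fold to 2.68-fold in Luc tumours with Aoah, against 2.40-fold to 3.86-fold in Luc tumours with vector. The ratio did not differ beyond the spread, with an exact permutation p of 0.0571 (two-sided) where the smallest possible was 0.0286. In LucOS tumours it was 2.41 to 3.24 with Aoah and 2.73 to 5.08 with vector (exact permutation p = 0.3, two-sided). The transcripts of these paralogs share some stretches: 8.21% of 50-base words in Stat5a and 11.0% of those in Stat5b occurred in both, so a part of their reads is hard to assign. Stat5a also overlaps Stat3 on the opposite strand, and the strand setting of the libraries was not given.

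**Figure D3:**
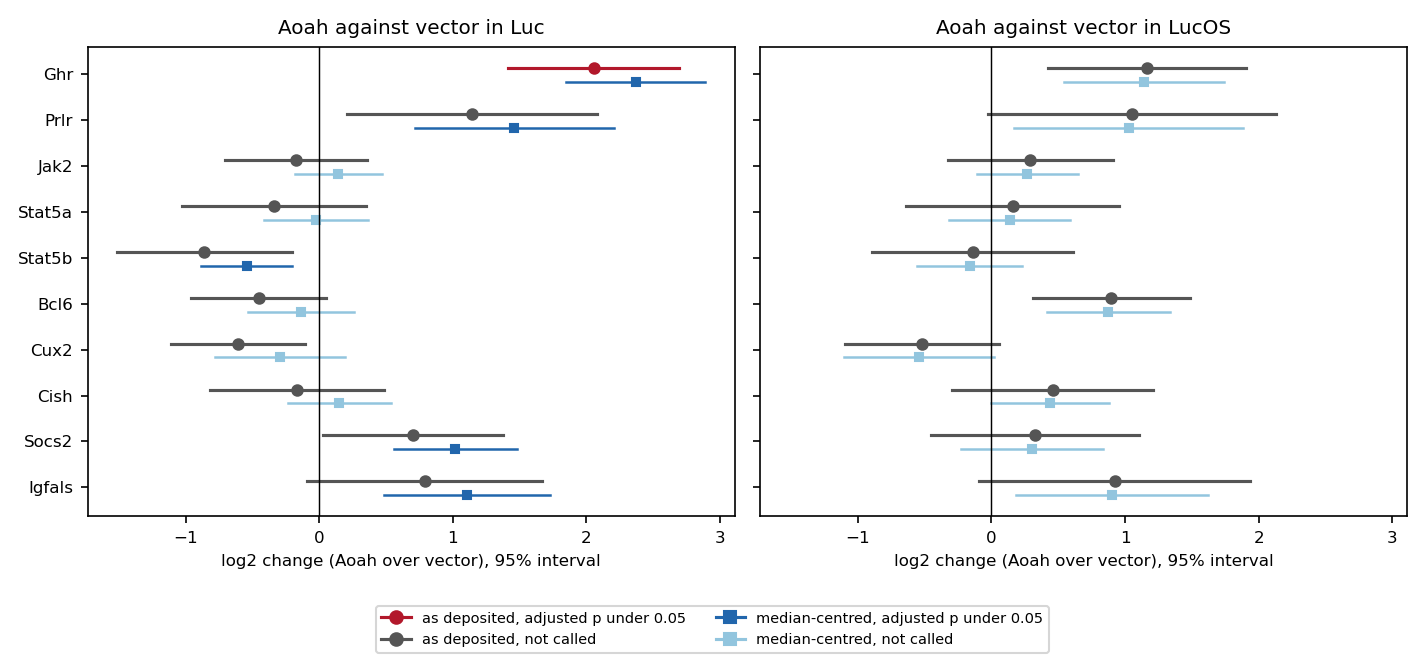
Change of each gene with Aoah (x axis, log2 of Aoah over vector, with 95% intervals) in Luc tumours (left) and LucOS tumours (right), from the values as deposited (circles) and after each tumour was shifted to the same median (squares). Ghr passes either way in Luc tumours; Prlr, Stat5b, Socs2 and Igfals pass only after the shift.

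Bcl6 leaned upward in LucOS tumours and, by less, downward in Luc tumours. This repressor is higher in male mouse liver, opposes Stat5 at shared sites and is also needed by germinal centre B cells. In LucOS tumours it had 2.16, 2.50 and 5.16 TPM with Aoah, against 0.80, 1.61 and 1.24 TPM with vector, and the groups did not overlap. That was true, in the higher direction, of 6.22% of all genes. The change was 0.90 (SE 0.27), with a p of 0.00525 before adjustment and 0.152 after it in limma. In Luc tumours it had 2.57, 2.29, 1.66 and 1.56 TPM with Aoah, against 2.89, 2.32, 3.89 and 3.46 TPM with vector, which overlapped, a change of -0.45 (SE 0.24; adjusted p = 0.158 in limma).

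Tested directly, the difference between these Bcl6 effects was 1.35 (SE 0.36), the largest of the 10 genes, with a p of 0.00209 before adjustment and 0.443 after it in limma. It stayed positive in all 25 alternative settings, at 1.00 to 1.92, and its adjusted p ran from 0.181 to 0.873. In that test 0.00743% of genes were called and 0 members; 10.2% of genes had an unadjusted p under 0.05, and among members Bcl6 did. The authors' deposited table called Bcl6 higher in LucOS tumours, with a log2 fold change of 1.42 and an adjusted p of 0.0200, and did not call it in Luc tumours, where it gave -0.35. Without Luc Aoah 3 and LucOS Aoah 3 the LucOS change was 0.60. Gm37419, on the opposite strand, overlaps Bcl6 and may share its reads. A T cell list (Cd3d, Cd3e, Cd3g, Cd2, Trac, Trbc2, Cd8a and Cd4) summed to 51.3 to 140.2 TPM in LucOS tumours with Aoah, against 12.3 to 32.6 TPM in LucOS tumours with vector. It also stood at 46.2 to 82.9 TPM in Luc tumours with Aoah, against 4.95 to 16.2 TPM in Luc tumours with vector. The part of lymphocytes in the Bcl6 values was not tested.

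Cux2, a repressor that is higher in female mouse liver, was low throughout. It had 0.27, 0.32, 0.03 and 0.20 TPM in Luc tumours with Aoah, against 1.27, 0.29, 1.24 and 0.70 TPM in Luc tumours with vector. Luc vector 2 lay among the Aoah tumours, so the groups overlapped, and the 2 highest values were those of Luc vector 1 and 3, the vector tumours that also held Aoah RNA. The change was -0.61 (SE 0.23; adjusted p = 0.0708 in limma), and -0.30 without Luc vector 1 and 3. Its levels in LucOS tumours were 0.32, 0.37 and 0.15 TPM with Aoah, against 0.27, 0.79 and 1.70 TPM with vector, a change of -0.52 (adjusted p = 0.474 in limma). Antisense genes overlap Cux2 and may share its reads.

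Of the feedback inhibitors, Socs2 leaned upward in Luc tumours and Cish did not. Socs2, which marks the growth hormone receptor for degradation, had 3.41, 7.72, 3.15 and 4.3 TPM in Luc tumours with Aoah, against 1.71, 1.78, 3.43 and 2.61 TPM in Luc tumours with vector. Luc vector 3 lay among the Aoah tumours. The change was 0.70 (SE 0.32; adjusted p = 0.107 in limma). LucOS tumours held 2.75, 2.60 and 5.71 TPM with Aoah, against 1.54, 4.62 and 2.23 TPM with vector, a change of 0.32 (adjusted p = 0.817 in limma), or 0.04 without Luc Aoah 3 and LucOS Aoah 3.

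Cish, an early Stat5 target whose promoter held a pair of motif copies, had 3.39, 6.01, 2.10 and 2.58 TPM in Luc tumours with Aoah, against 3.42, 2.70, 4.34 and 5.16 TPM in Luc tumours with vector. These overlapped, with a change of -0.16 and a 95% interval of -0.82 to 0.49. Cish in LucOS tumours had 3.05, 2.31 and 3.51 TPM with Aoah, against 1.13, 3.82 and 1.27 TPM with vector, a change of 0.46 with an interval of -0.29 to 1.21. The adjusted p-values in limma were 0.697 and 0.686. Gm17040 and Gm17041, on the opposite strand, overlap Cish and may share its reads.

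Igfals, the acid-labile subunit that liver secretes to hold insulin-like growth factors in the blood, leaned upward in both models. It had 5.27, 9.63, 2.51 and 5.20 TPM in Luc tumours with Aoah, against 2.78, 1.12, 3.36 and 3.65 TPM in Luc tumours with vector. Luc Aoah 3 was the tumour that overlapped the vector group. The change was 0.79 (SE 0.41; adjusted p = 0.156 in limma). In LucOS tumours it had 2.47, 1.78 and 8.02 TPM with Aoah, against 0.82, 2.60 and 0.95 TPM with vector, a change of 0.92 (adjusted p = 0.467 in limma). LucOS Aoah 3 set most of that, and the change was 0.41 without Luc Aoah 3 and LucOS Aoah 3.

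Several of these calls depended on how the tumours were scaled to each other. The median log2 level over tested genes ran from 2.67 in Luc Aoah 3 to 3.58 in Luc vector 4, beside the median change of -0.24 over all genes in Luc tumours. After each tumour was shifted to a common median, 5 of the 10 members passed in Luc tumours, where 30.6% of all genes did. Ghr (2.37), Prlr (1.46), Igfals (1.11) and Socs2 (1.02) were then higher with Aoah and Stat5b (-0.54) was lower. Quantile normalization called these 5 and also Cux2 (-0.65) lower, with 33.1% of genes called. The split of calls over all genes moved with the shift, to 2145 higher and 1975 lower, against 1068 higher and 1920 lower as deposited.

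Jak2 and Cish changed sign under both scalings, at 0.14 and 0.15 after the shift to a common median and 0.10 and 0.11 after quantile normalization. No member passed in LucOS tumours under either scaling, against 1.62% and 1.9% of all genes, and Bcl6 (adjusted p = 0.0595 and 0.0541) and Ghr (0.0606 and 0.0604) came closest in limma. The authors' deposited table called the same 6 genes as quantile normalization in Luc tumours, with log2 fold changes of 2.45 for Ghr, 1.51 for Prlr, 1.30 for Igfals, 1.2 for Socs2, -0.65 for Stat5b and -1.92 for Cux2, among 31.7% of 19102 identifiers called. In LucOS tumours the authors' deposited table called Ghr and Bcl6, among 2.77% of 16406 identifiers.

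Within a group the members tended to be high or low in the same tumours, and so did genes at large. Luc Aoah 2 was the highest Luc Aoah tumour for 8 of the 10 members and for 63.1% of all genes. Luc Aoah 3, the tumour rich in small noncoding genes, was the lowest for 9 members and for 67.2% of all genes. LucOS Aoah 3 was the highest of its group for 9 members, against 42.9% of all genes, and LucOS Aoah 2 the lowest for 8, against 57.5%. Among vector tumours, LucOS vector 2 was highest and LucOS vector 1 lowest for 9 members each, against 57.3% and 65.1% of all genes. Luc vector 4 was highest for 6 members (45.1% of all genes) and Luc vector 2 lowest for 7 (57.5%).

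**Figure D4:**
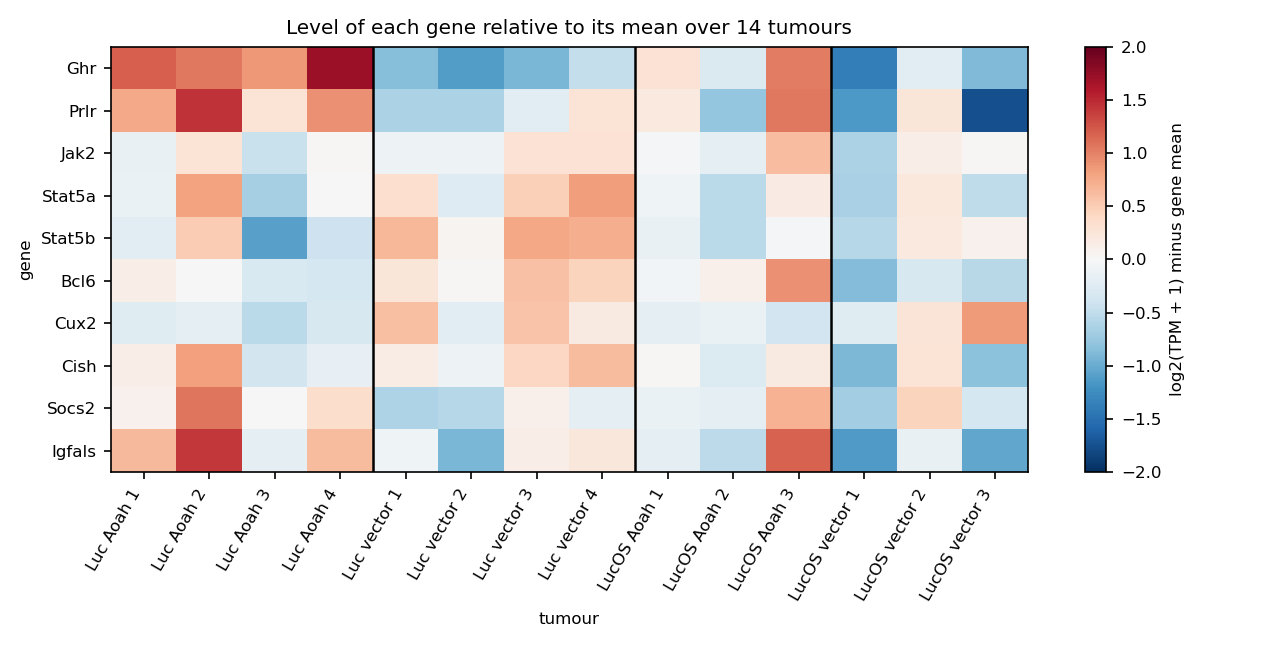
Level of each of the 10 genes (rows) in each of the 14 tumours (columns), as log2(TPM + 1) minus the gene's mean over all tumours; red is above and blue below that mean, and lines part the groups. Ghr is red in all 4 Luc tumours with Aoah, while Stat5b is blue in 3 of them.

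The antigens were compared among tumours of the same plasmid. With vector, Ghr differed by 0.01 between LucOS and Luc tumours, with a 95% interval of -0.68 to 0.71. Bcl6 had 0.80, 1.61 and 1.24 TPM in LucOS tumours with vector, against 2.89, 2.32, 3.89 and 3.46 TPM in Luc tumours with vector, with no overlap. The same held, in the lower direction, for 7.63% of all genes. Its change was -0.90 (SE 0.26), with a p of 0.0032 before adjustment and 0.344 after it in limma. With limma, 0 of the 10 members and 0% of all genes passed there, and 14.2% of genes had an unadjusted p under 0.05, among them Bcl6 and Cish.

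With Aoah, Ghr averaged 42.7 ± 19.9 TPM in LucOS tumours (SD, n = 3) and 75.7 ± 20.5 TPM in Luc tumours (SD, n = 4). LucOS Aoah 3 lay among the Luc tumours. The change was -0.88 (SE 0.32), with a p of 0.0164 before adjustment and 0.611 after it in limma. Again 0 members passed, against 0.0817% of all genes, and at an unadjusted p under 0.05 there was 1 member, Ghr, against 7.01% of all genes. These comparisons share tumours with the Aoah comparisons and are not independent of them.

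The insulin-like growth factor axis lies downstream of growth hormone in liver. Of 10 listed genes 8 passed the filter for testing, and of these 2 rose and 3 fell with Aoah in Luc tumours, with a median change of -0.84. Over all genes 7.93% rose and 14.3% fell there. Igf1, the growth factor that Stat5b switches on in liver, had 65.0, 86.2, 53.8 and 106.2 TPM in Luc tumours with Aoah, against 14.0, 6.36, 15.4 and 16.8 TPM in Luc tumours with vector. The groups were far apart, with a change of 2.51 (adjusted p = 0.000986 in limma). Igfbp7, an insulin-like growth factor binding protein also made by vessel cells, rose by 1.16. Igfbp1 and Igfbp2, binding proteins of the same factors, fell by 2.32 and by 1.35, and Igf2, the fetal growth factor, fell by 1.35, to 694 ± 247 TPM in Luc tumours with Aoah, against 1745 ± 545 TPM in Luc tumours with vector (SD, n = 4 each).

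In LucOS tumours 0 of the 8 passed, where 0.965% of all genes did. Igf1 had 42.6, 28.3 and 103.6 TPM with Aoah, against 10.3, 22.4 and 10.8 TPM with vector, without overlap, a change of 1.81 (adjusted p = 0.0823 in limma). No overlap in the higher direction was also found for 6.22% of all genes. After either rescaling 2 of the 8 passed in LucOS tumours, where 1.62% and 1.9% of all genes did. Without Luc vector 1 and 3, 1 rose and 1 fell in Luc tumours. Over all 13466 genes 265 rose and 96 fell in that setting.

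Other partners of the receptor went down where they passed. Of 17 listed signalling partners 16 could be tested, and of these 0 rose and 5 fell with Aoah in Luc tumours, with a median change of -0.61 against -0.24 for all genes. Over all genes 7.93% rose and 14.3% fell there. Socs3, an inhibitor best known for answering interleukin-6 through Stat3, had 3.54, 3.79, 2.42 and 1.46 TPM in Luc tumours with Aoah, against 25.6, 21.7, 33.5 and 22.4 TPM in Luc tumours with vector. These were far apart, with a change of -2.85 (adjusted p = 0.000151 in limma). Stat3, the transcription factor of interleukin-6 signalling, fell by 1.83 (adjusted p = 0.0113 in limma). The insulin receptor substrates Irs2 and Irs1 fell by 1.38 and by 0.62, and the phosphatase Ptpn11 fell by 1.13. After the shift to a common median 2 rose and 4 fell, where 15.9% of all genes rose and 14.7% fell. Without Luc vector 1 and 3, 1 fell, against 96 of all 13466 genes. Without Luc Aoah 3 and LucOS Aoah 3, 3 fell, against 494 of all genes.

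In LucOS tumours, where 0.965% of all genes were called, Socs3 was the 1 partner called. It had 1.74, 6.14 and 3.44 TPM with Aoah, against 8.94, 23.2 and 18.4 TPM with vector, without overlap, and fell by 1.92 (adjusted p = 0.0335 in limma). In these tumours 6.07% of all genes were also lower with no overlap. The median change of the 16 partners was 0.00 there. Without Luc vector 1 and 3, or without Luc Aoah 3 and LucOS Aoah 3, 0 passed. Over all 13466 genes 22 and 15 passed in these settings. Socs1, an inhibitor of interferon signalling that reached 1 TPM in too few tumours to be tested, averaged 0.23 ± 0.13 TPM in Luc tumours with Aoah and 0.17 ± 0.14 TPM in Luc tumours with vector (SD, n = 4 each). It averaged 0.95 ± 0.96 TPM in LucOS tumours with Aoah and 0.25 ± 0.15 TPM in LucOS tumours with vector (SD, n = 3 each). These ran from 0.29 to 2.06 TPM with Aoah and from 0.08 to 0.36 TPM with vector, which overlapped.

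Of 22 listed liver genes that are higher in male mice, 17 could be tested, and of these 11 rose and 0 fell in Luc tumours, where 7.93% of all genes rose and 14.3% fell. Their median change was 1.72, against -0.24 for all genes. Of the 17, 4 reached 1 TPM in Aoah tumours alone (Mup7, Mup12, Cyp4a12a and Slco1a1), so their tests depended on the filter. After the shift to a common median 14 of the 17 rose, where 15.9% of all genes did. Without Luc vector 1 and 3, 9 rose, against 265 of all 13466 genes. These counts were taken over all 17, with the same 4 genes kept. Mup3, a major urinary protein, averaged 1287 ± 304 TPM in Luc tumours with Aoah and 69.9 ± 30.6 TPM in Luc tumours with vector (SD, n = 4 each), a change of 4.25 (adjusted p = 1.18e-05 in limma). Mup genes are near-identical copies, and their reads may be split among them. Outside that family, Nudt7, which cleaves coenzyme A, rose by 2.04, the glucuronosyltransferase Ugt2b1 by 3.46, Selenbp2 by 1.79 and the oxysterol hydroxylase Cyp7b1 by 1.53. In LucOS tumours 16 of the 17 changes were positive, with a median of 0.96. Over all 13466 genes 6385 were positive, with a median of -0.02. The 4 genes that depended on the filter are among the 17, so the signs were not independent of it. Ugt2b1 was the 1 that passed (2.84, adjusted p = 0.0179 in limma). Of all genes 0.965% were called there. Ugt2b1 averaged 24.4 ± 18.9 TPM in LucOS tumours with Aoah and 2.24 ± 1.74 TPM in LucOS tumours with vector (SD, n = 3 each).

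Genes that are higher in female mice split. In Luc tumours 5 of 21 rose and 5 fell, where 7.93% of all genes rose and 14.3% fell. The median change of the 21 was 0.44. The cytochrome P450 Cyp2b9 rose by 3.57, to 12.5 ± 6.41 TPM in Luc tumours with Aoah, against 0.02 ± 0.02 TPM in Luc tumours with vector (SD, n = 4 each), and the sulfotransferase Sult3a1 rose by 2.79. Cyp2b9 and Cyp2b13 reached 1 TPM in Aoah tumours alone, so their tests were not independent of the filter. The cytochromes Cyp3a16 and Cyp3a44 fell by 2.69 and by 1.52, the estrogen sulfotransferase Sult1e1 by 2.10 and the stem cell marker Prom1 by 1.83. In LucOS tumours 3 rose and 3 fell, Cyp2b9 (2.55), Cyp3a16 (-2.21), Cyp3a44 (-2.12) and Prom1 (-2.15) among them. Of all genes 0.965% were called there. Without Luc vector 1 and 3, 3 rose and 3 fell in Luc tumours, where 265 of all 13466 genes rose and 96 fell. In LucOS tumours 0 genes of the female-biased and male-biased lists passed in that setting, against 22 of all genes. Without Luc Aoah 3 and LucOS Aoah 3, 0 genes of both lists passed in LucOS tumours, against 15 of all genes.

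**Figure D5:**
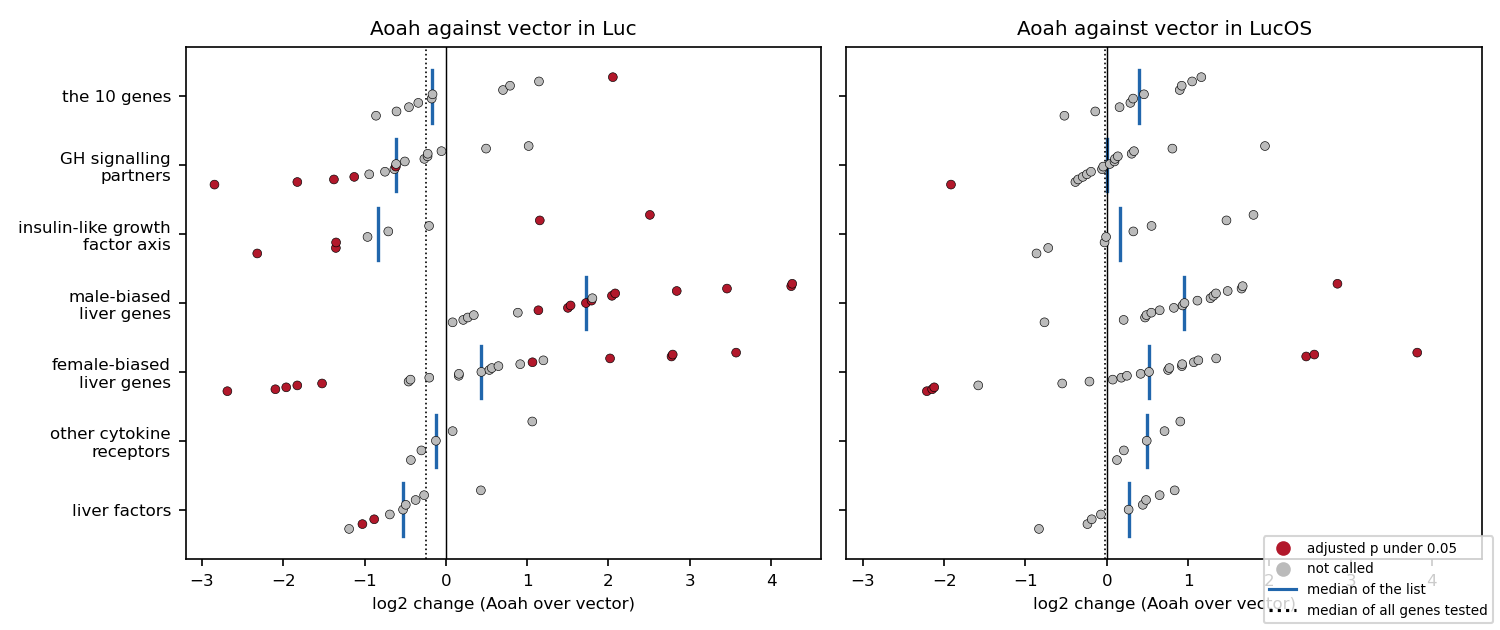
Change with Aoah (x axis, log2 of Aoah over vector) of each tested gene (points) in the 10 genes and 6 related lists (rows), in Luc tumours (left) and LucOS tumours (right); red points passed an adjusted p of 0.05, blue lines are list medians and the dotted line is the median of all genes. Male-biased genes lie to the right of 0 in Luc tumours, with a median of 1.72.

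Other cytokine receptors that use Stat5 gave no call: 0 of the 5 tested, of 11 listed, passed in limma in either model. In Luc and LucOS tumours 22.2% and 0.965% of all genes passed. At an unadjusted p under 0.05 there were 1 and 0 of the 5, against 41.8% and 12.3% of all genes. Il2rg, the shared chain of lymphocyte cytokine receptors, had the smallest p in Luc tumours, with a change of 1.06 (adjusted p = 0.0883 in limma). After either rescaling, or without Luc Aoah 3 and LucOS Aoah 3, 1 of the 5 rose in Luc tumours. Over all genes 15.9% rose after the median shift and 12.5% after quantile normalization. Without Luc Aoah 3 and LucOS Aoah 3, 900 of all 13466 genes rose. Of 9 tested (10 listed) liver transcription factors and receptors known to work with Stat5 or to be set by growth hormone, 0 rose and 2 fell in Luc tumours, the pioneer factors Foxa1 (-1.03) and Foxa2 (-0.88). Over all genes 7.93% rose and 14.3% fell there. Foxa1 averaged 3.17 ± 1.08 TPM in Luc tumours with Aoah and 7.88 ± 3.22 TPM in Luc tumours with vector (SD, n = 4 each). In LucOS tumours 0 of the 9 passed in limma and 2 had an unadjusted p under 0.05, Foxa1 and Esr1. Of all genes 12.3% had such a p there. Without Luc vector 1 and 3, or without Luc Aoah 3 and LucOS Aoah 3, 0 of the 9 passed in Luc tumours. Over all 13466 genes 361 and 1394 passed in these settings. After the shift to a common median 1 rose and 3 fell, where 15.9% of all genes rose and 14.7% fell.

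Markers of other cell types differed between the same groups. In Luc tumours 5 of 8 T cell markers, 3 of the 3 tested B and plasma cell markers (of 6 listed), 2 of 8 macrophage markers, 3 of 6 tested stellate and fibroblast markers (of 7 listed) and 2 of 6 endothelial markers rose, and none of these fell. Of 4 tested neutrophil markers (of 6 listed) 3 fell, and 1 of 3 tested cholangiocyte markers (of 5 listed) fell. Over all genes 7.93% rose and 14.3% fell in Luc tumours. Lrat, among the stellate and fibroblast markers that rose, reached 1 TPM in Aoah tumours alone. Its test was therefore not independent of the filter. The summed B and plasma cell level was 52.3 to 121.2 TPM in Luc tumours with Aoah, against 3.79 to 29.0 TPM in Luc tumours with vector, and 21.8 to 101.3 TPM in LucOS tumours with Aoah, against 2.16 to 28.5 TPM in LucOS tumours with vector. Stellate and fibroblast markers summed to 96.5 to 160.5 TPM in Luc tumours with Aoah, against 27.9 to 54.8 TPM in Luc tumours with vector, and to 91.4 to 209.4 TPM in LucOS tumours with Aoah, against 55.4 to 59.8 TPM in LucOS tumours with vector. Neutrophil markers summed to 48.9 to 97.6 TPM in Luc tumours with Aoah, against 118.8 to 368.7 TPM in Luc tumours with vector, and to 124.6 to 429.7 TPM in LucOS tumours with Aoah, against 391.7 to 890.6 TPM in LucOS tumours with vector. In LucOS tumours 2 of 8 T cell markers rose. In limma 0 passed there in the B and plasma cell, macrophage, neutrophil, stellate and fibroblast, endothelial and cholangiocyte lists. In these lists 3, 0, 3, 5, 0 and 0 markers had an unadjusted p under 0.05, against 12.3% of all genes. Without Luc vector 1 and 3, 4 T cell markers and 1 B and plasma cell marker rose in Luc tumours and 1 cholangiocyte marker fell. In the macrophage, neutrophil, stellate and fibroblast, and endothelial lists 0 passed then. Over all 13466 genes 265 rose and 96 fell in that setting. The median changes of these 4 lists were 0.89, -1.38, 0.73 and 0.85 there, against 0.66, -1.51, 0.64 and 0.57 with all tumours. Without Luc Aoah 3 and LucOS Aoah 3, 1 macrophage marker and 1 endothelial marker rose in Luc tumours, against 900 of all genes. The 2 T cell calls in LucOS tumours, where 0.965% of all genes were called, were lost without either pair. Over all genes 22 calls were left without Luc vector 1 and 3, and 15 without Luc Aoah 3 and LucOS Aoah 3. After the shift to a common median 8 T cell and 6 endothelial markers rose in Luc tumours and 1 neutrophil marker fell. Over all genes 15.9% rose and 14.7% fell after that shift. The part of these cells in the values of the 10 genes was not tested.

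For the 3 members with the widest range of log2(TPM + 1), the genes with the most similar profile were found by the root-mean-square difference of centred log2 values over the 14 tumours. Predicted genes and the segments of T cell receptor and immunoglobulin genes were left out of this search. Nearest to Ghr, whose own SD was 1.01, were Glyat (0.23), Ugt2b5 (0.25) and Rida (0.26). Nearest to Prlr, with an SD of 0.91, were Slc16a5 (0.31), Colec12 (0.33) and Slco2b1 (0.34). Nearest to Igfals, with an SD of 0.78, were Gclc (0.24), Slc13a3 (0.28) and Slco2b1 (0.29). The tumours share their group structure and their scaling, so likeness is a description.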

How the data were processed

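RNA was extracted with TRIzol and captured on poly-T beads, per the labels' protocols, which name both directional and non-directional libraries. The authors used RSEM, DESeq2 and build mm39, per the submitters' processing notes; the sources used here do not give versions or the aligner. The authors deposited log2 values, which are log2(TPM + 1) of 29923 symbols. Their deposited comparison tables hold log2 fold changes, a Wald score, and p-values; the numerator was read from the sign of Aoah. A deposited receptor repertoire table was not used here.

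The log2 values were fitted with limma 3.58.1 in R 4.3.3: 1 mean per group over 14 tumours, trended and robust variances, genes at 1 TPM or more in at least 3 tumours, and Benjamini-Hochberg adjustment at 0.05 over all 13466 genes. The 5 contrasts set Aoah against vector per model, tested the difference of these effects, and set LucOS against Luc per plasmid. TPM keeps no depth, so no counting intervals could be given. The fit was tested on simulated data.

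The members, the 15 gene lists and the naming rule were chosen with earlier results of these data known. The rule named all members, Aoah, Igf1, Socs1, Socs3, up to 4 genes of smallest p per list and model, and the genes most like 3 members; Irs1 was added after its values were seen. Promoters and overlaps came from RefSeq and GENCODE M21 annotation on GRCm38. Same-numbered tumours did not deviate together, with correlations of -0.55 to 0.10 between Aoah and vector tumours, so numbers were not used as pairs.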

Additional observations from a re-analysis of the deposited data

Results flagged for a closer look

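Stat5b in Luc vector 2, at 8.37 TPM, stood far below the other 3 Luc vector tumours, at 13.2 to 14.3 TPM; on the log2 scale its gap to the nearest of them, divided by the group's range, was 0.84. Chance alone marks about 1 in 20 such groups, and 1 of the 20 groups of 4 tumours examined was marked. Luc vector 2 was also the lowest of its group for 57.5% of all genes. After the shift to a common median its Stat5b log2 value was 3.33, against 3.60, 3.62 and 3.46 in Luc vector 1, 3 and 4. The rule was not applied to the shifted values. Without Luc vector 2 Stat5b passed as lower with Aoah in Luc tumours.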

How the results depend on the processing

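Ghr rose with Aoah in Luc tumours in all 26 alternatives, by 1.89 to 2.37 on the log2 scale (adjusted p 6.303e-05 to 0.0203 in limma). The number of members called there was 1, against 2 when only the groups compared were fitted (Ghr and Prlr), 5 after the shift to a common median, 6 after quantile normalization and 1 to 3 when single tumours were left out. In LucOS tumours it was 0, and 0 to 1 with single tumours left out. Under these scalings Jak2 (0.14 and 0.10) and Cish (0.15 and 0.11) changed sign in Luc tumours. Without Luc vector 1 and 3 the Ghr difference between LucOS and Luc vector tumours was -0.027, and with single tumours left out it ran from -0.29 to 0.29. Stat5a in LucOS tumours was -0.003385 without Luc Aoah 3 and LucOS Aoah 3, and -0.011 to 0.42 with single tumours left out; Stat5b there ran from -0.38 to 0.0085.

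The number of genes called varied far more. In Luc tumours it was 2988, against 1288 without a filter on low values, 618 with the replicate block, 361 without Luc vector 1 and 3, 1394 without Luc Aoah 3 and LucOS Aoah 3, and 867 to 5269 with single tumours left out (highest without Luc Aoah 2, lowest without Luc Aoah 4). In LucOS tumours it was 130, against 15 without a filter, 6 when only those groups were fitted, 218 and 256 after the median shift and quantile normalization, 0 with the block, 22 without Luc vector 1 and 3, 15 without Luc Aoah 3 and LucOS Aoah 3, and 13 to 353 with single tumours left out (lowest without LucOS Aoah 1, highest without LucOS vector 2). For the difference between the Aoah effects 1 gene was called. It was 2 without a filter, 0 with a pseudocount of 0.1 or 0.5, after the median shift, without mitochondrial and small noncoding genes, with the block, or without either pair of tumours, and 0 to 2 with single tumours left out.

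Between LucOS and Luc vector tumours 0 genes were called, against 4 without a filter, 2 when only those groups were fitted, 2 without Luc Aoah 3 and LucOS Aoah 3, and 0 to 3 with single tumours left out. Between LucOS and Luc tumours with Aoah 11 were called, against 4 with either smaller pseudocount, 6 without a filter, 5 with a filter on the mean, 2 when only those groups were fitted, 27 after quantile normalization, 3 without mitochondrial and small noncoding genes, 0 with the block, 2 without Luc vector 1 and 3, 5 without Luc Aoah 3 and LucOS Aoah 3, and 1 to 14 with single tumours left out. The cause of these shifts was not tested.

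With the replicate number as a block within each model, 1 member was called in Luc tumours, Ghr (2.05, adjusted p = 0.0104 in limma), and 0 in LucOS tumours. The numbers did not pair the tumours, so this is given once. A block within a model could not be fitted for the antigen comparisons; a block over both models was added after seeing the data, as was leaving out Luc Aoah 3 and LucOS Aoah 3. Cux2 gave no value with a filter on the mean. Groups of 3 or 4 tumours and unknown depth limit what could be called, above all for genes at a few TPM.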
